A study of Mus musculus with 8 samples.

Results

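The genes described here encode proteins of the spliceosome, the machine that removes introns from pre-mRNA, and the SR proteins, serine- and arginine-rich factors that guide it to exons. They were chosen by symbol: every probe set with a single annotated gene whose symbol begins with Sf3a, Sf3b, Srsf, Sfrs, Snrp or Prpf, or is Snw1, Sart1, U2af1, U2af2 or Sf1. The rule found 125 probe sets of 45 genes among 45037 probe sets of 18193 genes on the array. It took in 7 genes of the U1 particle and the Sm core, 14 of the U2 particle and 3′ splice site recognition, 14 of the Prpf, tri-snRNP and Prp19 group and 10 SR protein genes. Another 9 probe sets carry a member's name together with that of another gene and were not counted as members.

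Polysomal mRNA, the mRNA carried by clusters of ribosomes, was measured on 8 mouse arrays. The one-cell embryo group (4 arrays) received α-amanitin, which blocks RNA polymerase II. The other group (4 arrays) was oocytes at metaphase II (MII), and the labels name no treatment for it. Each array used an independent batch, which pooled between 160 and 500 eggs or embryos, and the RNA went through 2 rounds of amplification. The labels give no strain, age or hours after fertilization, and stage and α-amanitin cannot be told apart.

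Spliceosomes are assembled from small nuclear ribonucleoproteins (snRNPs), each an RNA wrapped in a ring of Sm proteins with further proteins of its own. U1 marks the 5′ splice site, Sf1 and the U2AF pair mark the branch point and 3′ splice site, U2 with its SF3a and SF3b complexes replaces Sf1, and the U4/U6.U5 tri-snRNP and the Prp19 complex then bring the machine to its catalytic form. The fully grown oocyte is transcriptionally silent and the mouse embryo transcribes little until its genome is activated, so proteins made from stored mRNAs supply the early embryo.

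Of the 125 probe sets, 101 passed a filter on dim signals, which asked for a value over the median of the same array in 4 or more of the 8 arrays, and 78 passed it on all 8. The 24 left out averaged at most 34.0 over the arrays, in arbitrary signal units. Snrpn, Srsf12 and Prpf40b kept no probe set and have no value below, which leaves 42 genes. A gene is represented by its brightest kept probe set unless stated otherwise. Each change is the one-cell mean minus the MII mean of log2(signal + 10), with its limma standard error, and adjusted p is the Benjamini-Hochberg value of limma over all 23336 kept probe sets. The offset of 10 understates the change of dim mRNAs.

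The arrays differ in ways that touch these genes. One-cell array 1 stood apart: its median signal was 71.8, where the remaining embryo arrays had 27.8 to 37.9 and the oocyte arrays 26.9 to 33.8. The geometric mean of its hybridization controls, RNAs added in fixed amounts, was 14879, where the remaining embryo arrays had 857 to 3718 and the oocyte arrays 905 to 1364. It was the lowest of the 4 one-cell arrays for 24 of the 30 member probe sets that fell and the highest for 11 of the 25 that rose. Other differences set the whole groups apart. For the 3′ control of 18S ribosomal RNA, the lowest embryo signal was 10688 (array 3) and the highest oocyte signal 2971 (array 4). Upper-quartile signals were separate too, with 108.8 the lowest embryo value (array 3) and 96.8 the highest oocyte value (array 2). Their effect on the member genes was not tested. Oocyte markers were bright in both groups (10 of 10 kept, summed signal 45296 to 74812 in one-cell embryos and 71151 to 104782 in MII oocytes). They did not move together. Mos (251 to 437 in one-cell embryos, against 11363 to 18169 in MII oocytes), Gdf9 and H1f8 were lower. Bmp15, Nlrp5 and Zp2 were higher, and the rest did not pass the test. Cumulus and granulosa markers were dim (6 of 11 kept, 396 to 1248 in one-cell embryos and 487 to 601 in MII oocytes), and so were sperm markers (4 of 8 kept, 211 to 596 in one-cell embryos and 201 to 276 in MII oocytes). Single markers went either way: sperm Prm2 (80.3 to 246 in one-cell embryos, against 15.7 to 46.1 in MII oocytes) and granulosa Cyp11a1 (45.5 to 209 in one-cell embryos, against 25.5 to 45.1 in MII oocytes) were higher, and sperm Akap4 (6.1 to 25.9 in one-cell embryos, against 61.8 to 107 in MII oocytes) was lower. No other cumulus, granulosa or sperm marker passed the test, and the part of such cells in the results below was not tested.

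Of the 42 genes, 14 were higher and 17 lower in one-cell embryos at an adjusted p under 0.05, which is 33.3% and 40.5% of them. Among all 12359 genes tested, 20.6% were called higher and 14.8% lower (35.3% either way). Over probe sets the counts were 25 higher and 30 lower of 101, against 19.3% and 12.8% (32.1% either way) of all kept probe sets. The groups did not overlap in 12 genes that were higher and 17 that were lower, against 20.3% and 15.4% (35.7% either way) of all genes. The median change of the member probe sets was -0.21 on the log2 scale, against 0.17 for all kept probe sets. Scaling moved these counts: 12 genes were higher and 15 lower after quantile normalization, and 8 higher and 14 lower with each array centred on its median. With the hybridization controls as a covariate 12 genes were higher and 7 lower, and 22 probe sets higher and 13 lower. Without MII array 3, 19 probe sets and 11 genes were lower. The calls over all 23336 kept probe sets moved as well. As deposited 4511 were higher and 2982 lower, after quantile normalization 3396 and 3576, and with each array centred 2937 and 2841. With the covariate 3929 were higher and 2131 lower, and 2234 were lower without MII array 3. Shares of all genes are given here only for the fit with all arrays as deposited.

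By role, the counts were unequal. In the U1 and Sm core 4 of 6 genes fell and 1 rose, in the U2 and 3′ splice site group 8 of 14 fell and 4 rose, among Prpf, tri-snRNP and Prp19 genes 1 of 13 fell and 7 rose, and among SR proteins 4 of 9 fell and 2 rose. Among all 12359 genes tested, 14.8% fell and 20.6% rose. For such short lists, the 2 of 9 SR, 1 of 6 U1 and Sm and 4 of 14 U2 and 3′ splice site genes that rose were near 20.6%. The 1 of 13 Prpf group genes that fell was near 14.8%. The gene medians in the order of the roles above were -1.14, -1.04, 1.17 and -0.57, against 0.17 for all genes. No test was run of one role against another. Since each array sums a batch of eggs, a signal does not separate fewer eggs carrying an mRNA from less of it per egg, nor less mRNA from less of it on ribosomes.

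**Figure D1:**
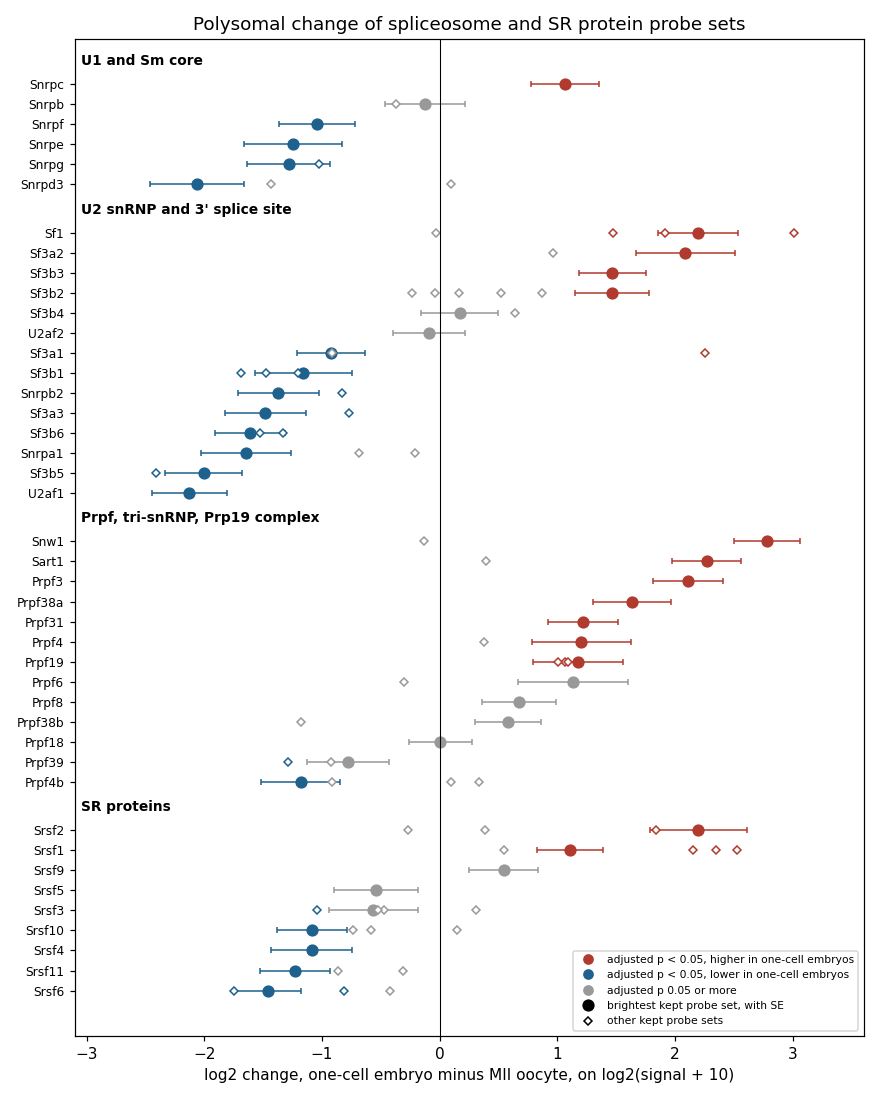
Log2 change (one-cell embryo minus MII oocyte) of the 101 kept probe sets of 42 genes, by role; filled circles with bars are the brightest probe set and its limma SE, open diamonds the other probe sets. Most Sm and U2 genes lie left of 0 and most Prpf genes right of it, while several genes have probe sets on both sides.

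The promoters of many members hold a motif that the rule did not use. RefSeq windows from 250 bases before to 50 after the transcript start (GRCm38.p6) were found for 39 of the 45 genes and searched on both strands for CCGGAAG, the core that ETS transcription factors are known to bind (its other strand reads CTTCCGG). It occurs in the windows of 18 of 39 member genes (46.2%), against 18.1% of the 9929 array-tested genes with a window and 9.93% of all 27025 genes with one. It was present in 7 of 13 members that rose (53.8%), 9 of 16 that fell (56.2%) and 2 of 7 that did not pass. Among all tested genes it was in 24.7% of those that rose and 19.6% of those that fell. A match describes the sequence and is not a measured binding site, and the arrays measured polysomal RNA, not promoter use. Stretches of 41 bases, 5′ to 3′ with the motif in capitals, follow for 3 genes that rose (Snrpc, Prpf3, Sf3b3) and 3 that fell (Snrpg, Sf3b6, Sf3a3), because the same core occurs in genes of opposite direction. The Sf3b6 stretch holds a second match on the other strand, which is left in lower case.
Snrpc, chr17:27840031-27840071, + strand: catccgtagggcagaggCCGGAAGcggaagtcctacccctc
Prpf3, chr3:95855787-95855827, - strand: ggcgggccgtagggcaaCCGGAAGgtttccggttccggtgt
Sf3b3, chr8:110847009-110847049, - strand: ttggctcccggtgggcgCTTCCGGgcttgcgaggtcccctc
Snrpg, chr6:86371378-86371418, + strand: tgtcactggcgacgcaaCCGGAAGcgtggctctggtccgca
Sf3b6, chr12:4817521-4817561, + strand: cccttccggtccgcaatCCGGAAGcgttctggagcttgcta
Sf3a3, chr4:124714754-124714794, + strand: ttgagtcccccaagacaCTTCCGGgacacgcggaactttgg

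The Sm ring is the common core of the U1, U2, U4 and U5 particles. Of its 5 members with a value, Snrpd3, Snrpe, Snrpf and Snrpg fell and Snrpb did not pass. Snrpd3 signals were 504, 2006, 1590 and 1125 on one-cell arrays 1 to 4, against 7034, 3463, 5395 and 4338 on MII arrays 1 to 4. The lowest MII value lay above the highest one-cell value, and the change was -2.06 ± 0.40 (adjusted p = 0.000859). Its other 2 kept probe sets, both much dimmer, did not pass (-1.43 ± 0.55 and 0.09 ± 0.35).

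Snrpg read 1738, 4258, 3042 and 3106 in one-cell embryos and 6898, 5753, 6868 and 9096 in MII oocytes (-1.28 ± 0.35, adjusted p = 0.00964), and its second probe set fell too (-1.03 ± 0.34). Snrpe, among the brightest members in the egg, read 1307, 5378, 4655 and 3031 in one-cell embryos and 7254, 6900, 6566 and 9598 in MII oocytes. Again the groups did not overlap, but the one-cell values were widely spread, and the change was -1.24 ± 0.42 (adjusted p = 0.0307). Snrpf read 417, 747, 900 and 436 in one-cell embryos and 925, 1041, 1616 and 1473 in MII oocytes (-1.04 ± 0.32, adjusted p = 0.0196).

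The remaining ring gene measured, Snrpb, was dim. It averaged 124 ± 51.5 in one-cell embryos and 130 ± 26.8 in MII oocytes (SD, n = 4 each), a change of -0.13 ± 0.34. Snrpc, a U1 protein outside the ring that helps U1 hold the 5′ splice site, went the other way. It read 407, 344, 266 and 212 in one-cell embryos and 117, 147, 133 and 156 in MII oocytes, with no overlap, and rose by 1.07 ± 0.29 (adjusted p = 0.00907). The rise of Snrpc missed the threshold after quantile normalization (0.70 ± 0.30, adjusted p = 0.0985) and with each array centred on its median (0.75 ± 0.30, adjusted p = 0.0897).

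The calls of Snrpe and Snrpf were near the threshold. Without one-cell array 1 all 4 Sm genes remained lower, with the ring's median at -0.88 against -1.24 with all arrays, and without one-cell arrays 1 and 4 only Snrpd3 and Snrpg were lower (median -0.58). Snrpe changed by -1.26 without MII array 1, -1.28 without MII array 2, -1.31 without MII array 3, -1.13 without MII array 4 and -1.22 without one-cell array 4, and each time missed the threshold (limma adjusted p = 0.0637, 0.0538, 0.0564, 0.0895 and 0.0739). Snrpf missed it without MII array 3 (-0.91, adjusted p = 0.0728), MII array 4 (-0.96, adjusted p = 0.0603) or one-cell array 4 (-0.90, adjusted p = 0.073). With each array centred on its median Snrpe (-1.56, adjusted p = 0.0768) and Snrpf (-1.36, adjusted p = 0.0583) missed it, and after quantile normalization Snrpe did (-0.72, adjusted p = 0.111). With the hybridization controls as a covariate only Snrpd3 of the ring passed (-1.32 ± 0.36, limma adjusted p = 0.0139).

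**Figure D2:**
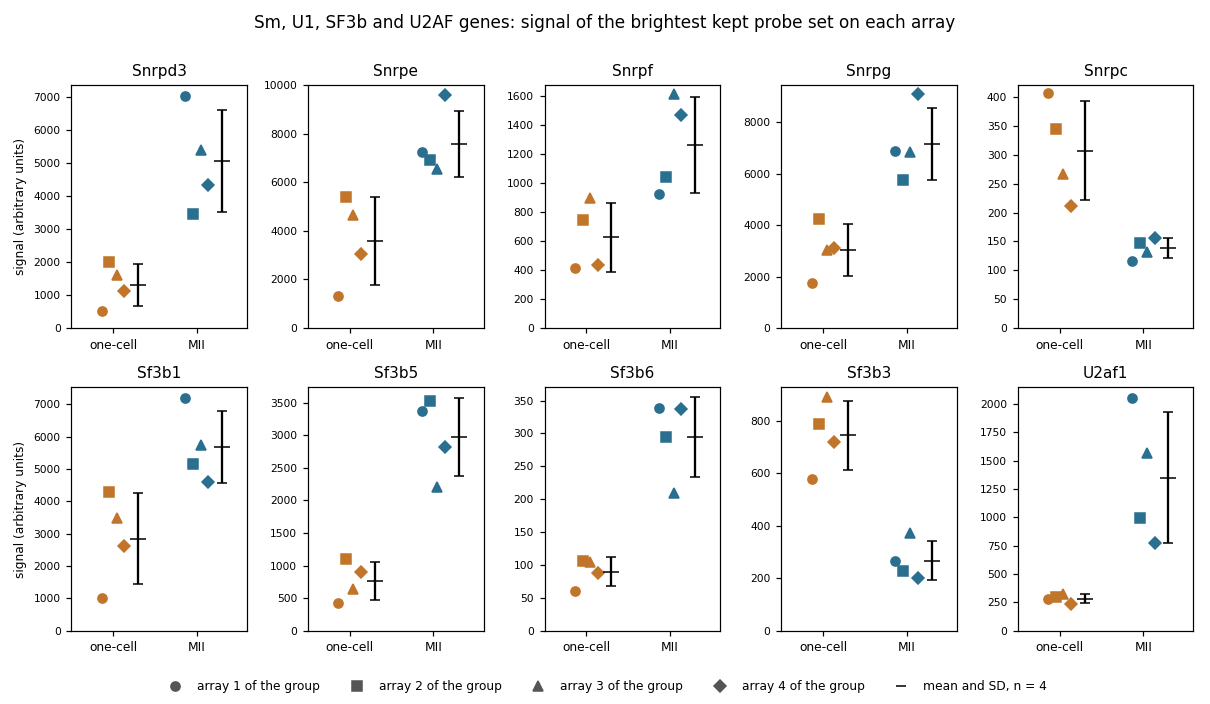
Signal (arbitrary units, linear axis from 0) of the brightest kept probe set on each of the 4 one-cell and 4 MII arrays, with mean and SD beside the points. Snrpd3, Snrpe, Snrpf, Snrpg, Sf3b1, Sf3b5, Sf3b6 and U2af1 lie lower on all 4 one-cell arrays than on any MII array, and Snrpc and Sf3b3 lie higher.

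The U2 particle carries SF3a and SF3b, which clamp the branch point, and its subunits did not move together. Of 6 SF3b genes, Sf3b1, Sf3b5 and Sf3b6 fell, Sf3b2 and Sf3b3 rose and Sf3b4 did not pass. Sf3b5, a small subunit, read 428, 1094, 642 and 905 in one-cell embryos and 3373, 3522, 2206 and 2819 in MII oocytes (-2.01 ± 0.33, adjusted p = 0.000196). Its second kept probe set fell by a similar amount (-2.41 ± 0.53).

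Sf3b6, the subunit that contacts the branch point adenosine, fell on all 3 of its kept probe sets, between -1.61 and -1.33. Its brightest read 60.3, 106, 105 and 88.1 in one-cell embryos and 338, 294, 209 and 337 in MII oocytes (-1.61 ± 0.30, adjusted p = 0.000561). Sf3b1, the large scaffold of the complex, fell on all 4 of its probe sets, between -1.68 and -1.16. The brightest read 996, 4294, 3473 and 2619 in one-cell embryos and 7216, 5164, 5735 and 4603 in MII oocytes (-1.16 ± 0.41, adjusted p = 0.0407). That brightest probe set had the highest adjusted p of the 4. Leaving out MII array 1, 2, 3 or 4 (-1.04, -1.20, -1.15 and -1.26, adjusted p = 0.115, 0.0665, 0.0885 and 0.0576) ended the call, as did leaving out one-cell array 4 (-1.18, adjusted p = 0.0792) or one-cell arrays 1 and 4 (-0.54, adjusted p = 0.184). So did quantile normalization (-0.69, adjusted p = 0.152) and centring each array on its median (-1.48, adjusted p = 0.0968). The mean over the 4 probe sets changed by -1.38 ± 0.30 (adjusted p = 0.00293).

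Sf3b3, the other large scaffold, rose where Sf3b1 fell. It read 578, 789, 892 and 718 in one-cell embryos and 265, 229, 371 and 201 in MII oocytes, with no overlap (1.47 ± 0.28, adjusted p = 0.000784). With each array centred on its median it missed the threshold (1.15 ± 0.42, adjusted p = 0.0644). The rise of Sf3b2 was found on 1 of its 6 kept probe sets (1.46 ± 0.32), and the other 5 changed by -0.23 to 0.87 without passing. The probe set that rose ends in x_at, the array maker's mark for probes that may bind other transcripts, and the mean over all 6 did not pass (0.46 ± 0.25, adjusted p = 0.188). Sf3b4 averaged 1714 ± 365 in one-cell embryos and 1589 ± 658 in MII oocytes (SD, n = 4 each).

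SF3a, the 3-subunit partner of SF3b, was split as well. Sf3a2 rose (2.09 ± 0.42, adjusted p = 0.00121), reading 7552, 3233, 2753 and 4996 in one-cell embryos and 493, 1756, 745 and 1542 in MII oocytes, while its dimmer probe set did not pass (0.96 ± 0.39). Sf3a3 fell on both of its probe sets (-1.48 ± 0.34 and -0.77 ± 0.28). Sf3a1 is the 1 member gene whose probe sets passed in opposite directions. The brighter read 182, 278, 239 and 208 in one-cell embryos and 627, 344, 474 and 349 in MII oocytes (-0.93 ± 0.29, adjusted p = 0.0204), and the dimmer read 465, 351, 504 and 501 in one-cell embryos and 75.2, 101, 93 and 78.7 in MII oocytes (2.26 ± 0.27). Neither probe set overlapped between the groups. The remaining, dimmest probe set did not pass (-0.92 ± 0.47), the mean of all 3 changed by 0.14 ± 0.24, and the direction of Sf3a1 is not settled by these arrays. The fall also missed the threshold without MII array 1 (-0.75, adjusted p = 0.0816), MII array 3 (-0.89, adjusted p = 0.0617) or one-cell array 4 (-0.89, adjusted p = 0.0544).

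The U2-specific proteins Snrpa1 and Snrpb2, which form a pair on the U2 RNA, both fell. Snrpa1 read 161, 678, 609 and 405 in one-cell embryos and 1199, 1237, 1132 and 1673 in MII oocytes (-1.65 ± 0.38, adjusted p = 0.00311), but its other 2 probe sets did not pass (-0.21 and -0.68). Snrpb2 fell on both kept probe sets (-1.37 ± 0.34 and -0.83 ± 0.29). Counted together, 7 of 11 U2 genes fell and 3 rose with all arrays and without one-cell array 1, and 5 fell and 3 rose without one-cell arrays 1 and 4. Among all genes tested, 14.8% fell and 20.6% rose with all arrays, and the 3 of 11 that rose were near that share for so short a list. Of all 23336 kept probe sets, 3276 fell and 4782 rose without one-cell array 1. Without one-cell arrays 1 and 4, 2647 of them fell and 4073 rose. With the hybridization controls as a covariate Snrpa1 (-0.92, adjusted p = 0.0619), Snrpb2 (-0.80, adjusted p = 0.0794), Sf3a3 (-0.88, adjusted p = 0.0559) and Sf3b1 (-0.40, adjusted p = 0.461) missed the threshold.

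Before U2 arrives, Sf1 binds the branch point and the U2AF pair binds the intron's end. Sf1 rose strongly, reading 3760, 5292, 5799 and 3921 in one-cell embryos and 582, 1313, 870 and 1502 in MII oocytes (2.19 ± 0.34, adjusted p = 0.000125). Besides the brightest, 2 more of its probe sets rose (1.47 ± 0.29 and 1.91 ± 0.61) and 1 did not pass (-0.03 ± 0.37). The probe set that rose by 1.91 ends in x_at. It read 1970 on one-cell array 1, against 185, 188 and 221 on one-cell arrays 2 to 4. On the MII arrays it read 35.1 to 157. The remaining kept probe set lay below the median of every MII array and passed the filter through the one-cell arrays alone. A rise was thus built into its being kept, and its change (3.01 ± 0.44) is no support for the rise of Sf1. It is still among the 25 member probe sets counted as higher, and it enters the mean over the probe sets of Sf1 (1.71 ± 0.26).

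U2af1, the small U2AF subunit that reads the terminal AG, had the largest fall of the 42 brightest probe sets in the fit with all 8 arrays. It read 277, 295, 321 and 233 in one-cell embryos and 2053, 997, 1570 and 773 in MII oocytes (-2.13 ± 0.32, adjusted p = 8.6e-05). U2af2, the large subunit that binds the polypyrimidine tract, read 2383, 1322, 1250 and 1432 in one-cell embryos and 1471, 2093, 1292 and 1825 in MII oocytes, with overlapping groups (-0.09 ± 0.31, adjusted p = 0.867).

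In the tri-snRNP and the activated spliceosome most changes were rises. Snw1, a component of the catalytic spliceosome that also acts as a transcription coregulator, read 1216, 857, 1274 and 823 in one-cell embryos and 123, 119, 138 and 192 in MII oocytes. Every one-cell value lay far above every MII value, and the change was 2.78 ± 0.28 (adjusted p = 2.38e-06). A second probe set of Snw1, brighter than the first in MII oocytes, did not pass, at 354, 227, 271 and 221 in one-cell embryos and 248, 242, 223 and 523 in MII oocytes (-0.13 ± 0.32).

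Sart1, which ties the tri-snRNP into the forming spliceosome, read 434, 386, 435 and 302 in one-cell embryos and 82.4, 99, 50.4 and 64.6 in MII oocytes (2.27 ± 0.29, adjusted p = 2.28e-05), and its second probe set did not pass (0.39 ± 0.59). Prpf3, a protein of the U4/U6 pair, read 247, 214, 297 and 230 in one-cell embryos and 47.6, 36.1, 58.5 and 57.3 in MII oocytes (2.11 ± 0.29, adjusted p = 4.61e-05). Prpf38a, which joins the machine before activation, read 961, 512, 748 and 506 in one-cell embryos and 257, 119, 313 and 183 in MII oocytes (1.63 ± 0.33, adjusted p = 0.00122). In all 3 genes the groups were apart, and their calls held in each of the 20 alternative settings.

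Prpf31, which bridges U4/U6 and U5, averaged 184 ± 23.2 in one-cell embryos and 74.5 ± 20.5 in MII oocytes (SD, n = 4 each; 1.22 ± 0.30, adjusted p = 0.00461), but missed the threshold after quantile normalization (0.72, adjusted p = 0.0803) and centring (0.90, adjusted p = 0.0685). Prpf19, the ubiquitin ligase that names its complex, was the 1 gene of those with several kept probe sets in which every probe set rose: its 4 changed by 1.01 to 1.17. The groups overlapped on all of them but the dimmest, and the brightest and next brightest end in x_at. The brightest read 10290, 8091, 4483 and 7261 in one-cell embryos and 2472, 4973, 2162 and 3909 in MII oocytes. Its call (1.17 ± 0.38, adjusted p = 0.0252) was lost without MII array 1 (1.05, adjusted p = 0.0899), MII array 3 (0.99, adjusted p = 0.111), one-cell array 2 (1.12, adjusted p = 0.0518) or one-cell array 4 (1.17, adjusted p = 0.0583). It was also lost with centring (0.86, adjusted p = 0.154), with the hybridization covariate (0.66, adjusted p = 0.212) and without the filter on dim signals (1.17, adjusted p = 0.0644), and the mean of the 4 probe sets rose by 1.08 ± 0.26 (adjusted p = 0.00536).

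Prpf4, the partner of Prpf3, passed narrowly (1.20 ± 0.42, adjusted p = 0.0372). Its call was lost on leaving out any of 6 arrays, namely MII array 1 (1.28, adjusted p = 0.0602), 3 (1.23, adjusted p = 0.0706) or 4 (0.90, adjusted p = 0.13) and one-cell array 1 (0.93, adjusted p = 0.0687), 2 (1.20, adjusted p = 0.0712) or 4 (1.26, adjusted p = 0.0625). Quantile normalization (0.86, adjusted p = 0.0957), centring (0.89, adjusted p = 0.0779), the hybridization covariate (0.68, adjusted p = 0.275) and the mean over its 2 probe sets (0.79, adjusted p = 0.12) ended it too. The U5 core protein Prpf8, the heart of the catalytic center, changed by 0.67 ± 0.31 (adjusted p = 0.12). Prpf8 passed without one-cell array 1 (0.96, adjusted p = 0.00772) or one-cell arrays 1 and 4 (1.03, adjusted p = 0.015). It also passed with the hybridization covariate (1.10, adjusted p = 0.0204) and with array weights (0.94, adjusted p = 0.00596). Prpf6 (1.13 ± 0.46) and Prpf38b (0.58 ± 0.28) did not pass with all arrays. Prpf6 did so without MII array 2 (1.40, adjusted p = 0.0436) or one-cell array 3 (1.53, adjusted p = 0.0168). It also passed after quantile normalization (1.44, adjusted p = 0.028), with array weights (0.91, adjusted p = 0.0446) and with the replicate number as a block (1.13, adjusted p = 0.0451). Prpf38b passed without one-cell array 1 (0.71, adjusted p = 0.043) and with array weights (0.64, adjusted p = 0.0476). Their other kept probe sets pointed downward without passing (-0.30 ± 0.35 for Prpf6 and -1.18 ± 0.44 for Prpf38b). The brightest Prpf6 probe set ends in x_at and read 14382 on one-cell array 1, against 5004, 2460 and 5621 on one-cell arrays 2 to 4. The second-step factor Prpf18 read 363, 430, 533 and 496 in one-cell embryos and 481, 350, 526 and 460 in MII oocytes, with overlapping groups.

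The kinase Prpf4b was the only gene of this group to fall. It read 174, 157, 141 and 98.3 in one-cell embryos and 498, 214, 472 and 233 in MII oocytes (-1.18 ± 0.33, adjusted p = 0.0119). The call was lost without MII array 1 (-0.99, adjusted p = 0.0529) or 3 (-1.01, adjusted p = 0.0541), and none of its other 3 kept probe sets passed. Prpf39, a U1-associated protein, changed by -0.78 ± 0.35 without passing. It passed in 7 of the 20 alternative settings, among them without one-cell array 1 (-1.07 ± 0.28, adjusted p = 0.00725). Another of its probe sets fell with all arrays (-1.29 ± 0.34). That probe set lay over the array median on all 4 MII arrays but on only 2 of the 4 one-cell arrays, so its MII values alone met the filter.

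**Figure D3:**
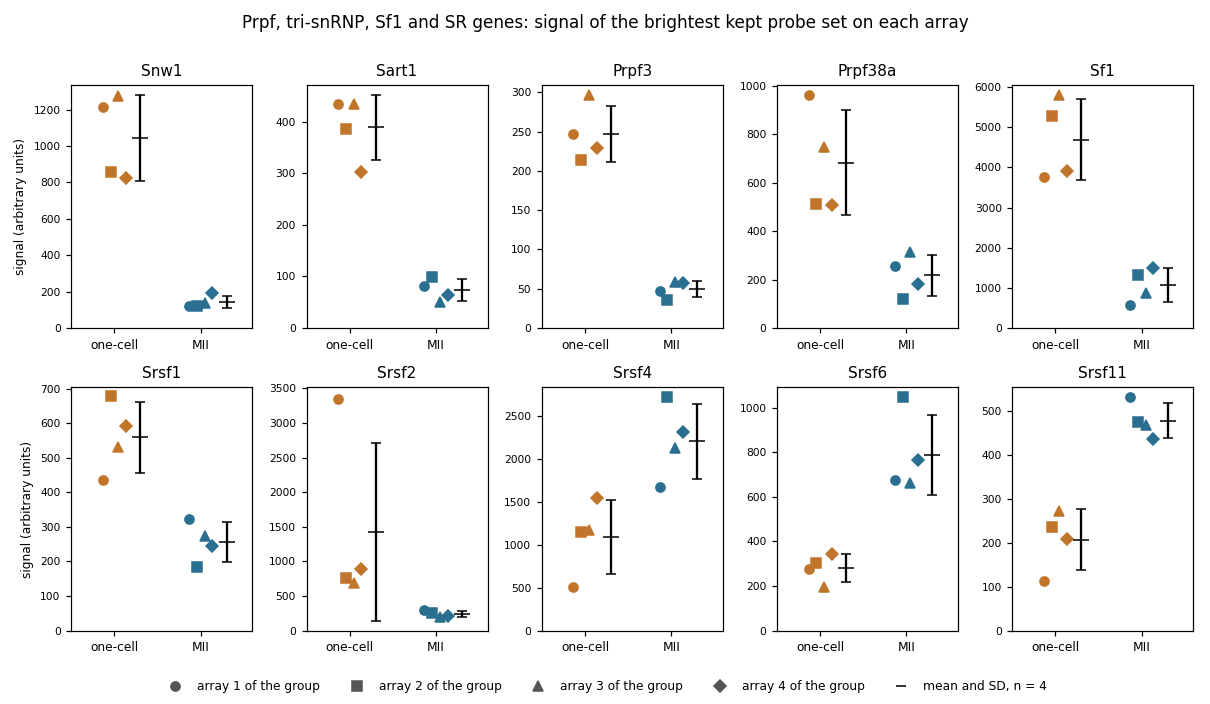
Signal (arbitrary units, linear axis from 0) of the brightest kept probe set on each of the 4 one-cell and 4 MII arrays, with mean and SD beside the points. Snw1, Sart1, Prpf3, Prpf38a, Sf1, Srsf1 and Srsf2 lie higher on all 4 one-cell arrays than on any MII array, and Srsf4, Srsf6 and Srsf11 lie lower; Srsf2 on one-cell array 1 stands far above the rest.

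SR proteins bind exonic enhancers and recruit U1 and U2AF. The pair best known as general splicing activators, Srsf1 and Srsf2, rose. Srsf1 read 436, 679, 531 and 592 in one-cell embryos and 323, 184, 275 and 244 in MII oocytes (1.10 ± 0.28, adjusted p = 0.0057). Of its 5 kept probe sets 4 rose, and the other 3 of these rose by more (2.15 to 2.53). The probe set that rose by 2.15 lay over the array median on only 1 of the 4 MII arrays. The probe set that rose by 2.53 did so on only 2 of them. Both lay over it on all 4 one-cell arrays, so their one-cell values alone met the filter. The call of the brightest was lost with each array centred on its median (0.79 ± 0.41, adjusted p = 0.184).

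Srsf2 read 3351, 759, 692 and 894 in one-cell embryos and 300, 249, 199 and 213 in MII oocytes (2.20 ± 0.41, adjusted p = 0.000643). One-cell array 1 stood far above the other 3, and without it the change was 1.67 ± 0.25 (adjusted p = 0.000118). A second probe set of Srsf2 rose (1.84 ± 0.44), and the other 2 did not pass (0.39 and -0.27). That second probe set was also far higher on one-cell array 1, at 2503, against 514, 434 and 547 on one-cell arrays 2 to 4.

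Srsf4, Srsf6, Srsf10 and Srsf11 fell. Srsf6 read 278, 304, 194 and 343 in one-cell embryos and 674, 1048, 660 and 766 in MII oocytes (-1.46 ± 0.28, adjusted p = 0.000816), and 3 of its 4 probe sets fell. Srsf11 read 112, 235, 272 and 207 in one-cell embryos and 532, 475, 468 and 435 in MII oocytes (-1.23 ± 0.30, adjusted p = 0.00445). Srsf10, an SR protein known as a repressor when dephosphorylated, read 195, 452, 344 and 357 in one-cell embryos and 720, 664, 854 and 580 in MII oocytes (-1.09 ± 0.30, adjusted p = 0.00964). None of these 3 overlapped between the groups, but the other probe sets of Srsf10 (3) and of Srsf11 (2) did not pass, and the mean over the probe sets of Srsf10 did not either (-0.57 ± 0.25, adjusted p = 0.103).

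Srsf4 has 1 probe set, which read 510, 1148, 1177 and 1544 in one-cell embryos and 1672, 2723, 2125 and 2310 in MII oocytes (-1.09 ± 0.34, adjusted p = 0.0223). It missed the threshold without MII array 2 (-0.98, adjusted p = 0.0625) or 4 (-1.06, adjusted p = 0.0548), and lay at it without MII array 3 (-1.10, adjusted p = 0.05). With the hybridization controls as a covariate Srsf4 (-0.68, adjusted p = 0.197), Srsf10 (-0.73, adjusted p = 0.0976) and Srsf11 (-0.75, adjusted p = 0.0552) missed it, and Srsf4 also after quantile normalization (-0.79, adjusted p = 0.0899) and centring (-1.41, adjusted p = 0.0668). Srsf3 (-0.57 ± 0.38), Srsf5 (-0.54 ± 0.36) and Srsf9 (0.55 ± 0.29) did not pass, although 1 of the 5 kept probe sets of Srsf3 fell (-1.04 ± 0.35).

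Probe sets of 1 gene often disagreed, as the plot of changes by role shows. Of 28 genes with at least 2 kept probe sets, 7 had all of them called in 1 direction (6 lower, 1 higher), 16 had some called in 1 direction and the rest not called, 4 had none called and 1, Sf3a1, had calls in both. The 6 with every probe set lower were Sf3a3, Sf3b1, Sf3b5, Sf3b6, Snrpb2 and Snrpg. Another 14 genes rest on 1 kept probe set, which leaves their agreement unchecked. Among them are U2af1, Prpf3, Prpf31, Prpf38a, Sf3b3, Snrpc, Snrpe, Snrpf and Srsf4. Of the 101 kept probe sets, 17 end in s_at, shared by several transcripts, and 10 in x_at, and where each lies on its mRNA was not analysed here.

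Other splicing genes, taken from lists drawn up from general knowledge, moved both ways too, and the counts below stand beside 20.6% higher and 14.8% lower among all genes. Of 141 tested genes outside the members, 33 rose and 35 fell, with a median of -0.15. The share that rose was near that of all genes. Of 50 further spliceosome core genes, 18 rose and 9 fell. The Prp19 complex member Cdc5l (3.78 ± 0.35, adjusted p = 1.01e-06) and the U5 GTPase Eftud2 (3.45 ± 0.32, adjusted p = 1.1e-06) led the rises, and Bcas2 (-1.71 ± 0.34, adjusted p = 0.00112), which binds Cdc5l, and Isy1 (-2.43 ± 0.50, adjusted p = 0.00145) led the falls. The Eftud2 probe set ends in x_at, and the mean over its 3 kept probe sets rose by 2.72 (limma adjusted p = 4.44e-05). With its 3 probe sets averaged, Isy1 did not pass (-0.51, adjusted p = 0.293). Its brightest probe set lay over the array median on all 4 MII arrays but on only 2 of the 4 one-cell arrays. The MII values alone thus met the filter.

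Among 13 snRNP assembly genes 4 rose and 1 fell, close to the shares of all genes for so short a list. The rises were led by Snupn, which carries new snRNPs into the nucleus (3.43 ± 0.33), and by Gemin7 of the SMN complex (1.63 ± 0.29). The 1 that fell, Strap, also of the SMN complex, did not pass with its probe sets averaged (-0.95 ± 0.32 for the brightest, 0.04 for the mean). Of 7 Lsm genes, whose ring sits on U6, 1 rose, Lsm2 (1.49 ± 0.36), and 0 fell, and of 3 exon junction complex genes 1 rose, Rbm8a (1.06 ± 0.35), which did not pass with its probe sets averaged (0.61, adjusted p = 0.122). Against 20.6% of all genes higher, 1 in 7 and 1 in 3 are no result about these lists.

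Of 23 SR kinase and SR-related genes 3 rose and 8 fell: the kinase Dyrk1a (2.72 ± 0.27) and Sfswap (2.11 ± 0.26) rose, and the SR-like activators Tra2a (-1.99 ± 0.42) and Tra2b (-1.90 ± 0.44) fell. Of 45 hnRNPs and other regulators 6 rose and 17 fell, led by Rbfox2 (2.10 ± 0.30) and Ptbp3 (2.34 ± 0.36) among the rises and Hnrnpk (-2.11 ± 0.37) and Tardbp (-2.05 ± 0.45) among the falls. With probe sets averaged, Sfswap (0.66), Ptbp3 (0.52), Hnrnpk (-0.23) and Tardbp (-0.97) did not pass.

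**Figure D4:**
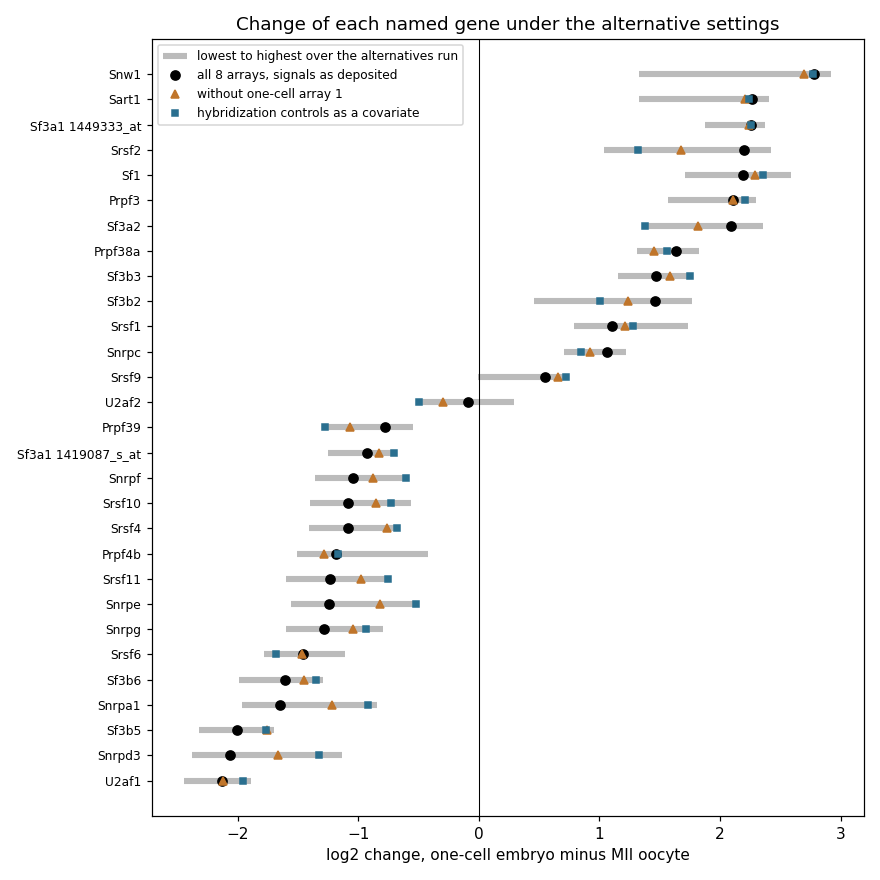
Log2 change (one-cell embryo minus MII oocyte) of the named genes: black circles with all 8 arrays, triangles without one-cell array 1, squares with the hybridization controls as a covariate, and grey bars the lowest to highest value over the alternative settings. The falls of Snrpe, Snrpf, Srsf4 and Srsf11 shrink with the covariate, while U2af1, Snw1, Sart1 and Prpf3 stay far from 0.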

How the data were processed

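The deposited values are linear intensities, 1 for each probe set on each array, from RNA that was amplified in 2 rounds, per the labels' protocols. Array software and scaling: not given in the sources used here. Each array's mean after trimming 2% at both ends was 150.0, which shows a common scaling. It hides any change in total polysomal mRNA.

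Signals were used as deposited, with 64 controls left out of the tests. Probe sets over the array median in 4 or more of 8 arrays were kept (23336). The difference, one-cell embryo minus oocyte, of log2(signal + 10) was tested in R 4.3.3 by limma 3.58.1 (a linear model with a trended eBayes prior, two-sided, Benjamini-Hochberg, threshold 0.05), without a block. Same-numbered arrays did not deviate together (correlations -0.16, -0.11, 0.14 and 0.04), so the numbers were not taken as pairs. The procedure was tested on simulated data. The number of arrays limits precision, and no detection calls were used.

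GEO's platform annotation named the probe sets. In each role list the rule named the 4 genes with the smallest p in each direction, plus Snw1, Sart1, U2af1, U2af2, Sf1 and any gene with opposite calls. In each other list it named the 2 with the smallest p in each direction past the threshold. Sf3a3, Sf3b1, Sf3b4, Snrpb, Snrpb2, Prpf4, Prpf6, Prpf8, Prpf18, Prpf19, Prpf31, Prpf38b, Srsf3 and Srsf5, the Sm, SF3a, SF3b and U2 subsets and the promoter motif were added after values were seen. Members and lists were chosen with earlier results of these data known. Srsf7, Snrpa, Snrpd1 and Snrpd2 were not analysed here. A probe set filter chosen over all 8 arrays was kept when an array was left out.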

Additional observations from a re-analysis of the deposited data

Results flagged for a closer look

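Dixon's ratio, the gap from the most distant array to its nearest neighbour divided by the range of its group of 4 on the log2 scale, exceeded its 95% critical value in 2 of 58 groups of the named probe sets, where chance gives about 1 in 20. Srsf2 on one-cell array 1 had a ratio of 0.839: its signal was 3351, and the remaining embryo arrays read 692 to 894. Srsf9 on MII array 3 had a ratio of 0.946: its signal was 142, and the remaining oocyte arrays read 93.1 to 95.3.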

How the results depend on the processing

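Of 29 named results, 26 passed the threshold, and 13 of these kept their call in every alternative run for them, 20 each (Srsf2, Srsf6, Sf1, Sf3a2, U2af1, Sf3b5, Sf3b6, Snrpd3, Snw1, Sart1, Prpf3, Prpf38a, and the dimmer Sf3a1 probe set with 19, since a mean over probe sets does not apply to it). The other 13 lost it in at least 1, and none changed direction while called. With each array centred on its median, 16 probe sets and 8 genes were higher, with 1 SR gene, 0 U1 and Sm genes and 4 Prpf group genes among the higher, and 2 U1 and Sm and 2 Prpf group genes among the lower. With the hybridization controls as a covariate, 13 probe sets and 7 genes were lower (1 SR, 3 U2, 1 U1 and Sm and 2 Prpf group genes), and 0 U1 and Sm genes were higher. Quantile normalization left 0 U1 and Sm genes higher and 2 Prpf group genes lower, array weights 2 Prpf group genes lower, and leaving out one-cell arrays 1 and 4 together 2 U1 and Sm and 2 Prpf group genes lower. Single genes lost there include Sf3b1 (-0.40 with the covariate, limma adjusted p = 0.461), Snrpe (-0.52, adjusted p = 0.34) and Sf3b3 (1.15 when centred, adjusted p = 0.0644). The cause was not tested. Over all 23336 kept probe sets, 2937 were higher and 2841 lower when centred, and 3929 higher and 2131 lower with the covariate. Quantile normalization gave 3396 higher and 3576 lower, array weights 5125 and 3472, and leaving out one-cell arrays 1 and 4 gave 4073 and 2647.

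The split of calls over all kept probe sets also moved: 60.2% of them were higher as deposited, against 48.7% after quantile normalization and 50.8% after centring, where the median change of all probe sets was -0.12 and -0.15 in place of 0.17. Leaving out 1 array at a time gave 20 to 27 probe sets higher and 19 to 31 lower, 12 to 15 genes higher and 11 to 18 lower, and a median of the members minus that of all probe sets of -0.52 to -0.26. That difference, -0.38 with all arrays, was -0.07 with the hybridization covariate and -0.19 without one-cell arrays 1 and 4. With 1 array left out at a time, the U1 and Sm genes lower ranged from 2 (without MII array 3, MII array 4 or one-cell array 4) to 4. In these fits the U2 genes lower ranged from 6 to 8, the SR genes lower from 3 to 4, the Prpf group genes higher from 5 to 8 and lower from 0 to 2. Their lowest count of falls, 19 probe sets and 11 genes, came without MII array 3. With the replicate number as a block, which the pairing check did not bear out, 26 probe sets were higher and 27 lower, and 15 genes higher and 17 lower. Of all 23336 kept probe sets, 4321 were higher and 2888 lower with that block. Leaving out 1 array at a time gave 3833 to 4782 of them higher and 2234 to 3276 lower. With 4 arrays a group and no detection calls, small changes and dim mRNAs could not be resolved.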
